A study of Mus musculus with 6 samples.

Results

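A set of 30 genes made by the glia of peripheral nerves and ganglia was followed in RNA of mouse sensory ganglia after a nerve crush. The genes were taken by name: every isoform whose gene name matched the set, once the isoform suffix had been removed, was included, and its abundance was summed per gene. Values were found for 28 of the 30 genes, as 91 of 60744 isoforms and 28 of 17022 gene names. The expression of Pou3f1, a transcription factor of immature Schwann cells, and of Gdnf, a growth factor, was not analysed here. The set holds 13 genes of myelin, 6 of satellite glia, 6 shared along the glial lineage and 5 of repair or reactive glia.

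Schwann cells wrap axons, and the myelinating ones stack their membrane into a sheath of galactolipids and a few abundant proteins under the control of the transcription factors Sox10 and Egr2. Satellite glia enclose the cell body of each sensory neuron inside the ganglion, take up potassium and glutamate and are joined to each other by gap junctions. After an axon is cut or crushed, Schwann cells below the lesion are known to lower their myelin genes and to raise a repair programme, whereas satellite glia around injured cell bodies are known for raising Gfap.

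The libraries came from C57Bl/6 males, labelled as adults aged 4 to 6 weeks, and were prepared 7 days after surgery. In the crush group the sciatic nerve was compressed for 10 seconds; in the sham group it was exposed for the same time. Lumbar ganglia 3, 4 and 5 of the operated side were frozen, neurons were captured from them with a laser, and 3 polyadenylated-RNA libraries were sequenced per group (sham 1 to 3, crush 1 to 3). The ganglia lie above the crush, so the injured stretch of nerve was not sampled. The deposited table heads its columns as biological replicates, but the number of animals behind a library is not given in the sources used here, so the p-values measure the spread between these libraries, which may be technical.

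Abundance was in FPKM, fragments scaled for transcript length and library size, and the number of reads behind a value cannot be recovered, so depth is unknown. Summed FPKM was 316263 to 364606 per library. The libraries are labelled as neurons, and 10 neuronal markers with values summed to 5578 to 7515 FPKM. The glial genes nevertheless made up 0.967% to 1.18% of all FPKM, and 0.534% to 0.572% without Apoe. Apoe was the gene of rank 4 among all 17022 gene names, and Pmp22, S100b, Fabp7 and Vim had ranks 77, 98, 110 and 149. At the other end, Slc1a3, Pllp, Egr2 and Gjb1 lay between 1.07 and 2.61 FPKM on average. These are bulk libraries, in which a change in the number of captured glial cells cannot be told apart from a change in RNA per cell. The libraries also do not show whether neurons or glia made a given transcript.

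Genes with a mean of at least 1 FPKM were tested as log2(FPKM + 1) with limma, and changes below are log2 differences, crush minus sham, on that scale with a 95% interval. An adjusted p under 0.05 was called a change. This was reached by 464 of 12289 genes tested (3.78%), of which 293 rose (2.38%) and 171 fell (1.39%). Of the glial genes, 27 were tested and 1 rose, Fa2h (3.70%), a share near that of all genes, and 0 fell. The 27 had a median change of 0.15, beside -0.02 for all genes, and 20 had a positive change (74.1%, beside 45.9% of all genes). At an unadjusted p under 0.05 there were 9 of 27, beside 17.6% of all genes. The crush libraries were all higher than the sham libraries for 8 of the 27 genes (29.6%), beside 12.2% of all genes, and all lower for 1 (S100b), beside 14.1%.

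**Figure D1:**
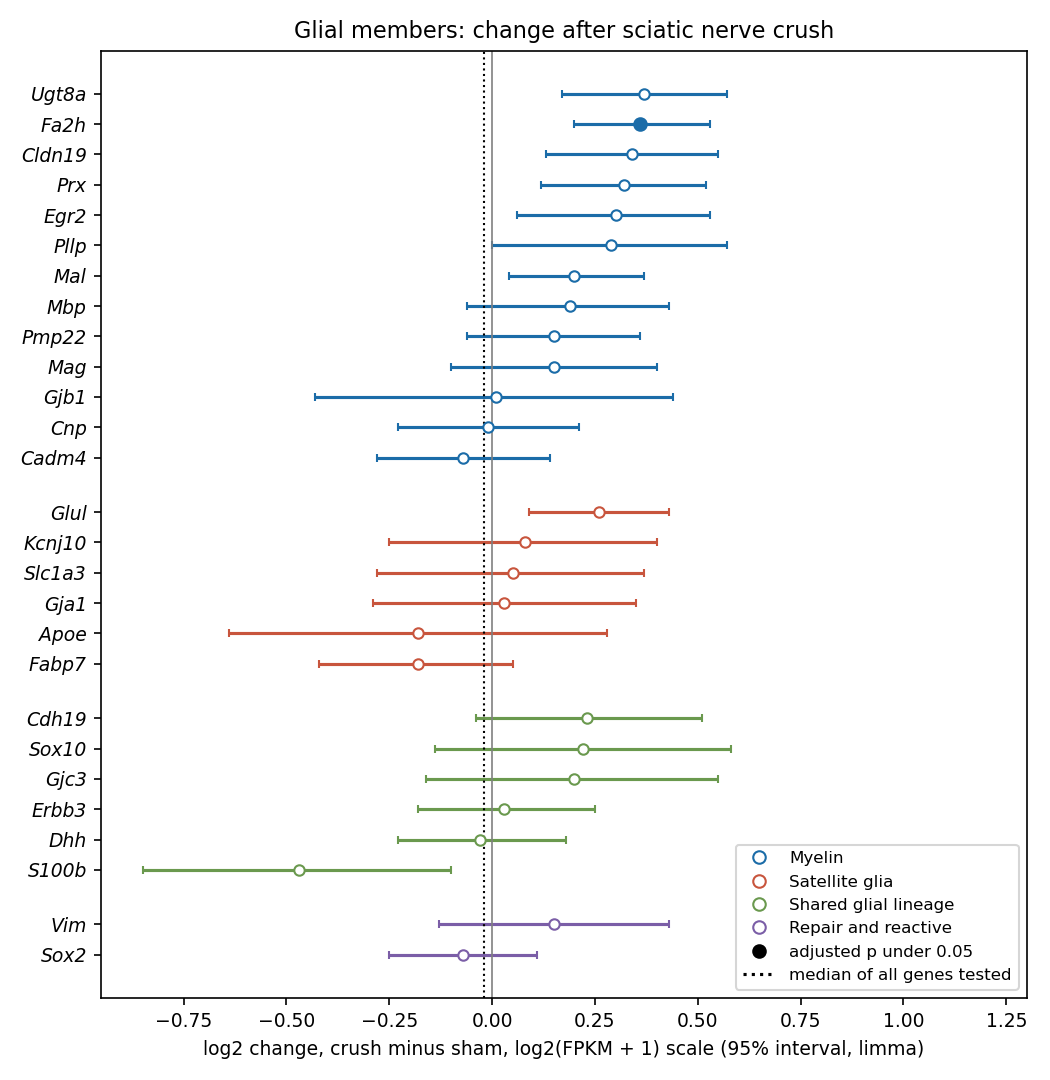
Log2 change of the 27 tested glial genes (x axis, crush minus sham on the log2(FPKM + 1) scale) with its 95% limma interval, sorted within the 4 groups (colours). The filled point is Fa2h, the only gene with an adjusted p under 0.05, the dotted line is the median of all genes tested (-0.02), and most myelin genes lie to the right of both lines.

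Most myelin genes had small positive differences after the crush. Of 13 tested, 1 rose and 12 did not pass the test, and 7 had an unadjusted p under 0.05 (53.8%, beside 17.6% of all genes). A positive change was found for 11 (84.6%, beside 45.9% of all genes), and the median was 0.20. For 6 the crush libraries all lay above the sham libraries (46.2%, beside 12.2% of all genes). The gene that rose was Fa2h (chr8:113869039-113917670, minus strand, mm9), the enzyme that hydroxylates the fatty acids of myelin galactolipids. In sham 1 to 3 Fa2h had 2.48, 2.67 and 2.77 FPKM, and the crush libraries gave 3.76, 3.67 and 3.60. The groups were apart and narrow, with means of 2.64 ± 0.146 and 3.68 ± 0.0808 FPKM (mean ± SD with n = 3 here and throughout) and a ratio of 1.39 (change 0.36, interval 0.20 to 0.53, limma adjusted p = 0.0413). The call rested on each library but sham 2: with 1 of the other 5 left out the adjusted p was 0.128 to 0.191, and without sham 2 it was 0.0252. It was lost with no filter on low values (adjusted p = 0.0583), with quantile normalization (0.0521) and when only isoforms with a reference identifier were summed (0.50), the change being 0.32 to 0.36.

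Ugt8a, the enzyme that joins galactose to ceramide to make the main myelin galactolipid, had a difference of like size that did not pass the test. It was at 3.13, 2.65 and 3.15 FPKM in sham and 4.44, 3.92 and 4.06 in crush, a ratio of 1.39 (change 0.37, adjusted p = 0.0702). The 2 enzymes act in one pathway, and for both every crush library was higher than every sham library.

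Periaxin (Prx), a scaffold protein at the membrane of myelinating Schwann cells, was at 10.5, 9.69 and 11.3 FPKM in sham and 14.4, 13.0 and 12.7 in crush (change 0.32, adjusted p = 0.0958). Claudin 19 (Cldn19), which seals the tight junctions of Schwann cell myelin, was at 2.56, 3.06 and 3.14 FPKM and then 4.20, 3.92 and 3.75 (change 0.34, adjusted p = 0.0932). Mal, a proteolipid of membrane rafts, was at 22.4, 22.5 and 25.0 FPKM in sham and 28.0, 25.9 and 26.9 in crush (change 0.20, adjusted p = 0.199). In all 3 genes the groups did not overlap, with ratios of means of 1.27, 1.35 and 1.16.

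Egr2, the transcription factor that switches on the myelin programme, was low in all libraries. It was at 1.07, 0.943 and 1.19 FPKM in sham and 1.41, 1.39 and 1.83 in crush, so the groups did not overlap (means 1.07 ± 0.122 and 1.54 ± 0.249, change 0.30, adjusted p = 0.183). Pllp, a proteolipid of myelin membrane, was at 1.41 to 2.05 FPKM in sham and 2.05 to 2.70 in crush, groups that met at sham 1 and crush 3 (change 0.29, adjusted p = 0.276). Of its exon bases 56.9% are shared with Arl2bp on the opposite strand, which had 44.6 FPKM, and strand was not stated to be kept in the library preparation.

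The 2 most abundant myelin genes, both structural, showed smaller differences that did not pass. Pmp22, a membrane protein of compact myelin, was at 377, 423 and 366 FPKM in sham and 417, 427 and 447 in crush (389 ± 30.2 and 430 ± 15.1, change 0.15, interval -0.06 to 0.36, adjusted p = 0.455). Mbp, which binds the inner faces of the membrane together, was at 123, 146 and 139 FPKM in sham and 171, 148 and 146 in crush (change 0.19, interval -0.06 to 0.43, adjusted p = 0.413). Without sham 1 or without crush 1 the change of Mbp was 0.11, and with library weights 0.30. For both genes sham 2 was the highest sham library and overlapped the crush group.

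The other 4 myelin genes had changes between -0.07 and 0.15. Mag, an adhesion protein facing the axon, was at 2.40 to 3.18 FPKM in sham and 2.81 to 3.19 in crush. Gjb1, the connexin of gap junctions within the myelin sheath, was at 0.924 to 1.17 FPKM in sham, and crush 2 (0.523) lay far under crush 1 and crush 3 (1.40 and 1.37). Cnp, an enzyme of non-compact myelin, and Cadm4, an adhesion protein of the internode, overlapped fully between groups, with ratios of 0.993 and 0.952. Of their exon bases, 40.2% are shared with Dnajc7 on the opposite strand (70.7 FPKM) for Cnp and 39.7% with Zfp428 on the same strand (10.5 FPKM) for Cadm4. The sign for Gjb1 and for Cnp turned under other scalings, so no direction can be read for them.

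**Figure D2:**
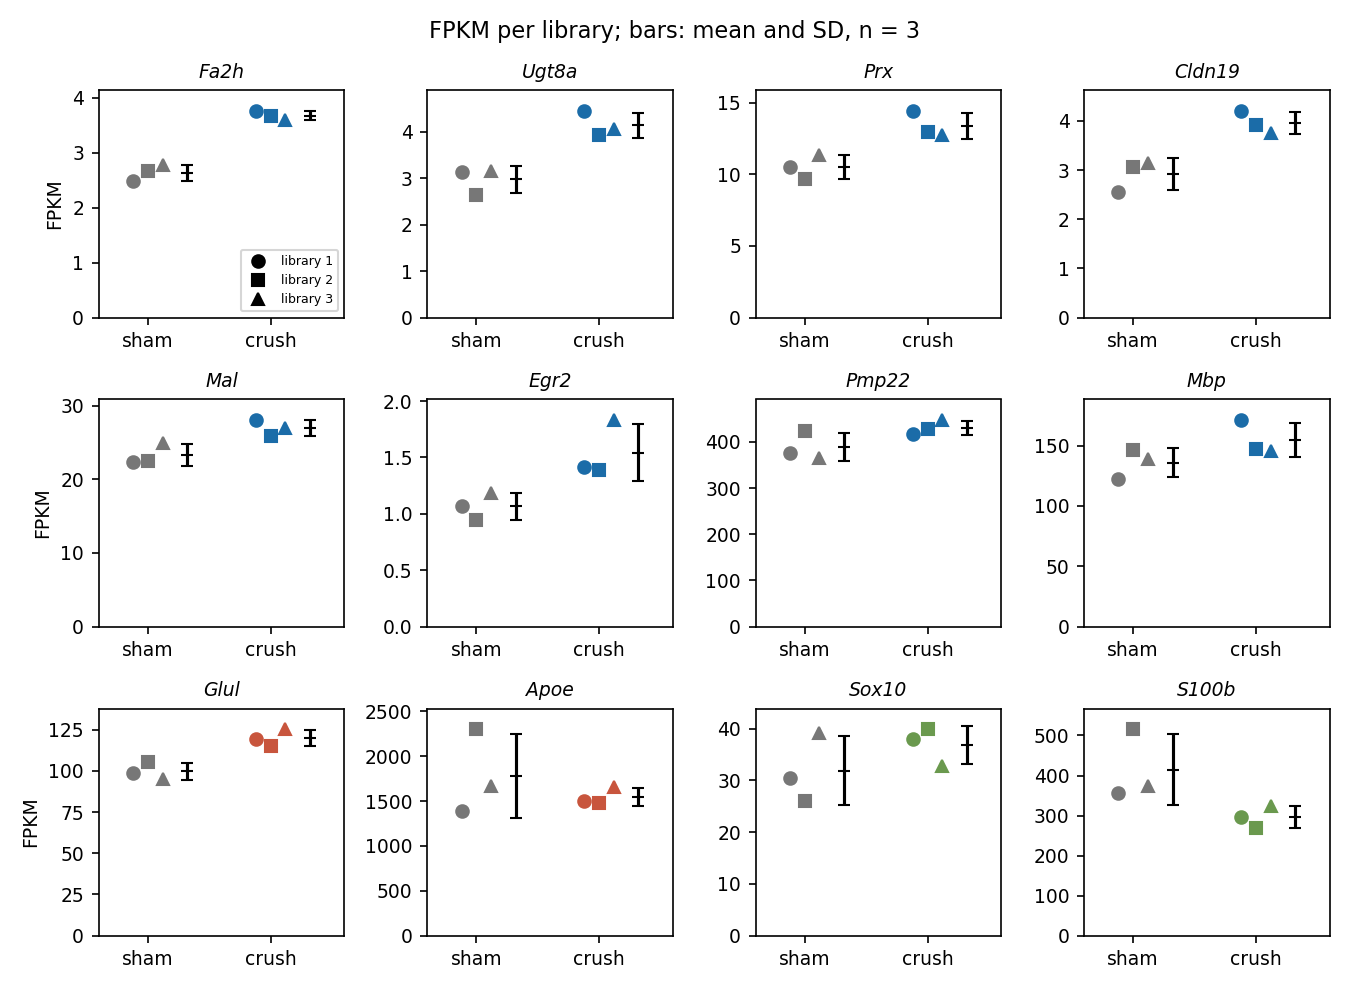
FPKM (y axis, from 0) of 12 glial genes in each library; symbols mark libraries 1 to 3 of the sham group (grey) and the crush group (coloured by gene group), and bars show mean and SD of 3 libraries. Fa2h, Ugt8a, Prx, Cldn19, Mal, Egr2 and Glul are higher in every crush library and S100b is lower in every one, and sham 2 stands apart for Apoe (2302 FPKM) and S100b (516 FPKM).

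The 250 bases before the start of the genes were searched for 3 short motifs on both strands: ACAANG, the core bound by SOX factors, GCGTGGG, the core bound by EGR factors, and TATAAA. RefSeq promoter windows (GRCm38.p6, another build than the mm9 of the files, and matched by symbol only) were found for 24 of the 30 genes, 40 windows in all; Fa2h had no entry. The 3 genes below, picked from those whose crush libraries were all higher, are shown 5′ to 3′ on the gene's strand, in lower case with motif matches in capitals. They are Prx at chr7:27499074-27499323 (plus strand), Cldn19 at chr4:119255191-119255440 (plus strand) and Mal at chr2:127656696-127656945 (minus strand).
Prx: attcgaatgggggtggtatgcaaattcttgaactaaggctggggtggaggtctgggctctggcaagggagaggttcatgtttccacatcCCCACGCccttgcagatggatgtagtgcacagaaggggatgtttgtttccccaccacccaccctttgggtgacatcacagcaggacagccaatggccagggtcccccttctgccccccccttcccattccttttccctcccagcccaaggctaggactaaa
Cldn19: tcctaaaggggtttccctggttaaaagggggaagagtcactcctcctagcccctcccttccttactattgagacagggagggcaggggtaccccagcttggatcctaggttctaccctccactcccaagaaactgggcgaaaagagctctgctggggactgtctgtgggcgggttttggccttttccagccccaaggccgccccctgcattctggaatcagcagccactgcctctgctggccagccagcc
Mal: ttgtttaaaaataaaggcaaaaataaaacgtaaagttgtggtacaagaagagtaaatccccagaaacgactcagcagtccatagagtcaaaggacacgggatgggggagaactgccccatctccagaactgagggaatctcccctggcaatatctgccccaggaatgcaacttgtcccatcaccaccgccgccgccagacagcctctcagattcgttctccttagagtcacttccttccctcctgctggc
The capitals in Prx are the EGR core read on the reverse strand, the only match to that motif in the 40 windows, beside 4.30% of 32851 windows of all genes. Cldn19 and Mal hold none of the 3 motifs in this stretch. None of the 3 genes shown was called by limma. Ugt8a, Egr2, Glul and Gfap were also higher in every crush library and had windows, which are not shown. Ugt8a, Glul and Gfap held none of the 3 motifs, and 1 window of Egr2 held a SOX core. The SOX core was in 15 of the 40 windows, beside 36.3% of all windows, and TATAAA in 5, beside 12.4%. A match is a description of letters and no evidence of binding.

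Other myelin genes, from a list of 17, were tested for 16. None was called by limma, and 5 had an unadjusted p under 0.05 (31.2%, beside 17.6% of all genes). The median change was 0.14, and the crush libraries were all higher for 6 of 16 (37.5%, beside 12.2% of all genes). The smallest adjusted p was that of gliomedin (Gldn), which gathers sodium channels at nodes, at 2.12, 1.62 and 2.27 FPKM in sham and 3.21, 2.91 and 3.11 in crush (ratio 1.53, change 0.44, adjusted p = 0.0703).

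No satellite glia gene passed the test, and their differences had both signs. Of 6 tested 0 were called, and 1 had an unadjusted p under 0.05 (16.7%, beside 17.6% of all genes). A positive change was found for 4 (66.7%, beside 45.9% of all genes) and a negative one for 2, and the median was 0.04. Apolipoprotein E (Apoe), the lipid carrier that satellite glia make in large amounts and that macrophages also make, was at 1387, 2302 and 1664 FPKM in sham and 1501, 1475 and 1658 in crush. The group means of 1784 ± 469 and 1545 ± 98.9 FPKM differ mainly through sham 2 (change -0.18, interval -0.64 to 0.28, adjusted p = 0.711); without sham 2 the change was 0.02. Exons of Apoe share 75.8% of their bases with a Tomm40 transcript on the same strand in the authors' exon file.

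Fabp7, a fatty acid binding protein of satellite glia, was at 339, 350 and 381 FPKM in sham and 341, 283 and 319 in crush (change -0.18, interval -0.42 to 0.05, adjusted p = 0.410), with 1 crush library inside the sham range. Glutamine synthetase (Glul), which turns glutamate taken up by glia into glutamine, was higher in every crush library, without passing the test. It was at 99.0, 105 and 95.2 FPKM in sham and 119, 115 and 125 in crush, with no overlap (ratio 1.2, change 0.26, interval 0.09 to 0.43, adjusted p = 0.114). Glul passed the threshold with upper-quartile scaling, with quantile normalization, with library weights and without sham 2, its adjusted p running from 0.0166 to 0.358 over all alternatives.

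The other 3 are the potassium channel Kcnj10, the glutamate transporter Slc1a3 and the connexin Gja1, the proteins by which satellite glia clear the space around the cell body and couple to each other. Their changes were 0.08 (interval -0.25 to 0.40), 0.05 (-0.28 to 0.37) and 0.03 (-0.29 to 0.35). Kcnj10 was at 11.7 to 17.3 FPKM in sham and 14.2 to 16.5 in crush, and Gja1 at 7.81 to 11.6 and 9.13 to 10.6. For both, sham 2 was the lowest of the 6 libraries, and without it the changes were -0.07 and -0.10.

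Of 14 other satellite glia genes tested, 1 fell (7.14%, beside 1.39% of all genes) and 13 did not pass, with a median change of 0.01. The gene that fell was aldolase C (Aldoc), a glycolytic enzyme of astrocytes and satellite glia that some neurons also make, at 83.5, 101 and 87.8 FPKM in sham and 63.3, 57.5 and 67.5 in crush (ratio 0.691, change -0.52, adjusted p = 0.0389).

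Genes shared along the glial lineage gave 0 calls of 6, with a median change of 0.11. An unadjusted p under 0.05 was found for 1 (16.7%, beside 17.6% of all genes). Sox10, the transcription factor that marks all peripheral glia, was at 30.5, 26.0 and 39.1 FPKM in sham and 38.0, 39.9 and 32.8 in crush. The groups overlapped widely (31.8 ± 6.67 and 36.9 ± 3.69 FPKM, change 0.22, interval -0.14 to 0.58, adjusted p = 0.526), and the change was 0.09 without sham 2 and 0.37 without sham 3. S100b, a calcium-binding protein of Schwann cells and satellite glia, was the member of largest absolute change and the 1 whose crush libraries were all lower. It was at 355, 516 and 374 FPKM in sham and 295, 268 and 323 in crush (ratio 0.712, change -0.47, interval -0.85 to -0.10, adjusted p = 0.183). S100b passed the threshold with quantile normalization and with library weights, and its change lay between -0.57 and -0.28 over the alternatives. Of its exon bases 88.6% are shared with Dip2a on the opposite strand, which had 4.97 FPKM.

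Cdh19, a cadherin of Schwann cell precursors, was at 9.98 to 13.9 FPKM in sham and 14.0 to 14.9 in crush, apart by a small margin (change 0.23, adjusted p = 0.365; 0.11 without sham 2). Erbb3, the receptor through which glia read neuregulin, was at 8.80 to 11.1 FPKM in sham and 9.79 to 10.1 in crush (change 0.03, interval -0.18 to 0.25). Desert hedgehog (Dhh), a signal from Schwann cells to the nerve sheath, was at 10.7 to 11.8 and 10.3 to 12.2 FPKM, and the connexin Gjc3 at 5.68 to 8.70 and 7.98 to 9.23 (change 0.20, but 0.03 without sham 2). The signs for Erbb3 and Dhh turned under other settings.

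Ligands, receptors, ligand-cleaving proteases and other genes of the neuregulin and hedgehog pathways gave 0 calls among 8 tested, with a median change of 0.03. An unadjusted p under 0.05 was found for 1 (12.5%, beside 17.6% of all genes). The smallest adjusted p belonged to the ligand Nrg2, at 5.35, 5.31 and 4.63 FPKM in sham and 3.65, 4.17 and 3.52 in crush (change -0.35, adjusted p = 0.0890).

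Among repair and reactive genes, 3 of 5 had values and 2 were tested, with 0 calls (0 at an unadjusted p under 0.05) and changes of 0.15 and -0.07. Vimentin (Vim), an intermediate filament of glia, fibroblasts and macrophages, was at 220, 277 and 253 FPKM in sham and 261, 262 and 309 in crush (250 ± 28.6 and 277 ± 27.7, adjusted p = 0.582). Sox2, a transcription factor of immature glia that holds back myelination, was at 7.16, 7.44 and 7.84 FPKM in sham and 6.63, 7.02 and 7.60 in crush (adjusted p = 0.703). Both overlapped between groups.

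Gfap, the filament protein known to mark reactive satellite glia, lay under the filter with a mean of 0.357 FPKM and was not tested with the filter on. It was at 0.0453, 0.318 and 0.113 FPKM in sham and 0.718, 0.339 and 0.605 in crush, so every crush library was higher than every sham library, at levels under 1 FPKM in all 6. Of 10 other repair genes tested 0 were called, with a median change of 0.06, and 3 had an unadjusted p under 0.05 (30%, beside 17.6% of all genes). The smallest adjusted p was that of Id2, an inhibitor of differentiation factors. Its values were 11.0, 11.4 and 11.9 FPKM in sham and 8.25, 9.83 and 9.31 in crush (change -0.30, adjusted p = 0.103).

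Set side by side, the medians were 0.20 for myelin, 0.11 for the shared lineage, 0.04 for satellite glia and 0.04 for the repair genes, beside -0.02 for all genes. The order after myelin rested on single libraries: without sham 2 the medians were 0.24, 0.02, -0.02 and 0.08 in the same order, without sham 3 they were 0.25, 0.21, 0.12 and 0.06, and with any 1 library left out myelin remained the highest. The mean log2(FPKM + 1) of the myelin genes minus that of the satellite glia genes had the values -2.41, -2.40 and -2.49 for sham 1 to 3, against -2.24, -2.31 and -2.18 for crush 1 to 3. The crush libraries thus all had a smaller distance between the 2 groups of genes; this is a description of these members and was not tested.

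**Figure D3:**
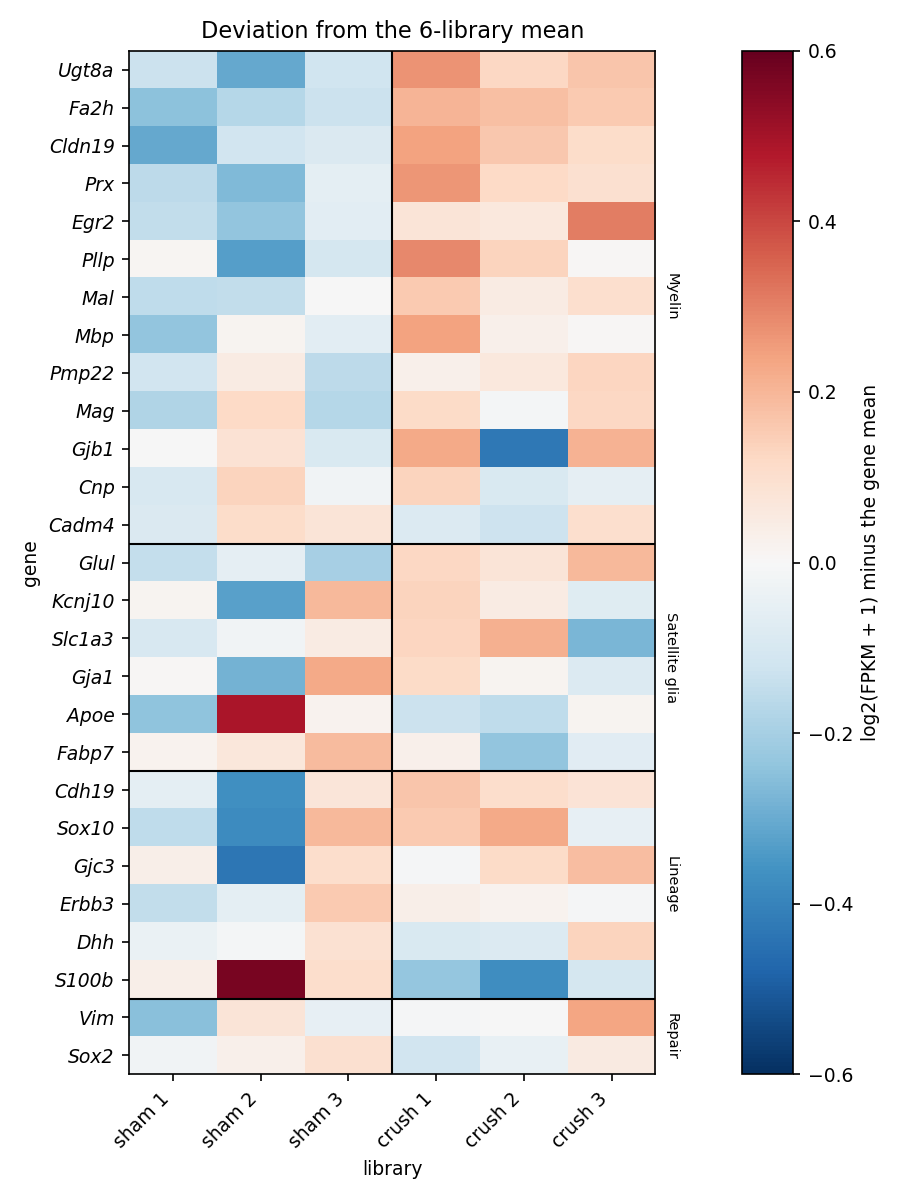
Deviation of each tested glial gene (rows, in the 4 groups; Lineage and Repair stand for the shared lineage and the repair or reactive genes) from its mean over the 6 libraries (columns), in log2(FPKM + 1). Red is above and blue below the mean; the upper myelin rows turn from blue to red between sham and crush, and sham 2 is red for Apoe and S100b and blue for Kcnj10, Gja1, Cdh19, Sox10 and Gjc3.

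Markers of other cell types were read in the same libraries. Of 11 macrophage markers tested 10 rose (90.9%, beside 2.38% of all genes), with a median change of 0.89. The 12 with values summed to 69.8 to 82.1 FPKM in sham and 151 to 166 in crush, none being at 0. Of the 10, Cx3cr1 and Itgam had sham means under 1 FPKM and passed the filter only through the crush group, so that count and median partly follow from the filter; without them 8 of 9 rose. Fibroblast markers gave 0 calls of 6 with a median of 0.38, and 5 had an unadjusted p under 0.05 (83.3%, beside 17.6% of all genes). The 7 with values summed to 116 to 155 FPKM in sham and 178 to 190 in crush, and Pdgfra passed the filter only through the crush group. Endothelial markers gave 0 of 7 (0 at an unadjusted p under 0.05) with a median of 0.00. Neuronal markers gave 0 of 10 with a median of -0.04, and 3 had an unadjusted p under 0.05 (30%, beside 17.6% of all genes). Oligodendrocyte markers were not analysed here. The macrophage and fibroblast sums were higher in every crush library, as 6 of the myelin genes were, and their part in those values was not tested.

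Sham 2 stood apart from the other 5 libraries over the whole table, with 35.1% of genes above and 31.4% below all others. Of the 27 glial genes it was above all others for 3 (Cadm4, Apoe and S100b) and below for 9, namely Prx, Egr2, Pllp, Ugt8a, Kcnj10, Gja1, Sox10, Cdh19 and Gjc3. The median transcript length, weighted by FPKM, was 1604 bases for the 3, 3881 for the 9 and 2521 for the 15 inside the range. The lengths overlapped, at 1207 to 5337 bases for the 3, 2517 to 6222 for the 9 and 766 to 5664 for the 15. A part of transcript length in the place of sham 2 was not tested. Other libraries also lay at the edge for many glial genes: crush 1 was above all others for 10 of 27, beside 13.5% of all genes, and sham 1 below all others for 9 of 27, beside 15.4%. Without sham 2, 1174 genes were called and 3 glial genes rose (Fa2h, Glul and Ugt8a). With any other library left out, 53 to 119 genes were called and 0 glial genes.

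Isoforms were compared for 14 glial genes with at least 2 that passed the filter. No isoform of a member was called by limma, beside 15 of 24485 in the table (0.0613%), and no member differed between its isoforms by limma's diffSplice test, beside 35 of 6746 genes (0.519%). The smallest adjusted p were those of Cadm4 (0.183; unadjusted p = 0.00156) and Gjc3 (0.351; unadjusted p = 0.00500). In Cadm4 the isoforms of 5314 and 5353 bases differed in opposite directions: the shorter was at 6.05, 8.71 and 9.28 FPKM in sham and 4.87, 5.11 and 4.32 in crush, the longer at 8.93, 8.60 and 7.64 and then 10.2, 9.47 and 12.9. The groups did not overlap for either, while the gene totals overlapped (16.4 ± 1.25 and 15.6 ± 1.39 FPKM). Neither isoform was called (limma adjusted p = 0.315 for the shorter and 0.554 for the longer). The part that exons shared with Zfp428 have in these estimates was not tested.

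Pmp22 and Mbp have more than 1 transcript start in the authors' exon file, so their isoforms were grouped by listed start. Pmp22 (chr11:62942259-62973020, plus strand, mm9) had 56.0% to 60.4% of its FPKM from 3 isoforms at the most upstream start and 30.1% to 33.9% from 1 isoform that starts at 62944941. The third start, with 2 isoforms, gave 8.42% to 11.5%, or 34.9 ± 1.27 FPKM in sham and 44.2 ± 4.42 in crush, with no overlap. For Mbp (chr18:82644322-82755026, plus strand, mm9) the bulk, 66.9% to 73.3%, was assigned to 1 isoform listed from 82744605, the most downstream start. This isoform has 3 exons, 1549 bases and no reference identifier. Whether its first base is a true transcript start was not tested. The 5 isoforms of the most upstream start held 25.0% to 31.6%, at 40.3 ± 1.36 FPKM in sham and 43.4 ± 0.549 in crush, again with no overlap. The start at 82723474, with 1 isoform, was low in every library but did not overlap either, at 0.654 ± 0.0309 FPKM in sham and 1.45 ± 0.318 in crush. In every library the starts of Pmp22 kept the same order of level, the upstream one highest. In Erbb3 the order of its 2 starts turned between libraries, the upstream one holding 25.9% of the FPKM in sham 2 and 38.8% in crush 3 and 51.8% to 56.8% in the other 4. In Cdh19 the most downstream of 3 starts was at 6.75 ± 0.820 FPKM in sham and 8.29 ± 0.433 in crush, with no overlap, and the most upstream overlapped. Sums by start were not tested, and the share of starts without overlap over all genes was not computed. The main isoform of the third Pmp22 start had a limma adjusted p of 0.368, and the Mbp isoform at 82723474 had 0.341. No change of a start is therefore called.

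**Figure D4:**
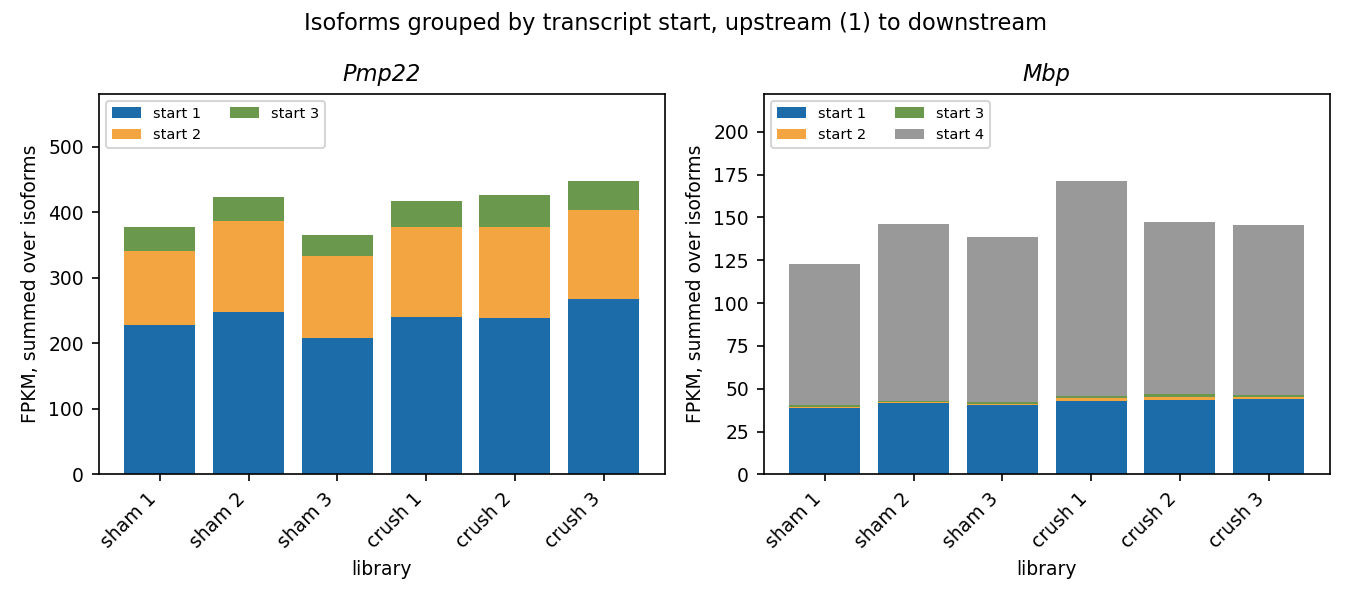
FPKM summed over isoforms that share a listed transcript start (stacked colours, start 1 most upstream) in each library for Pmp22 and Mbp, with the y axis from 0. Start 1 of Pmp22 gives the largest layer in every library, and start 4 of Mbp does so for that gene.

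The authors' deposited table also holds a comparison of pooled groups for each isoform. Of the 91 isoforms of the members, the deposited status of that test was FAIL for 47, NOTEST for 9 and OK for 35, and by its values 10 of the 35 had a q-value under 0.05, beside 15.1% of 25544 isoforms with status OK. Of these 10, 7 reach 1 FPKM in a group, and 2 of those 7 are Vim isoforms whose pooled estimates in the authors' deposited table lie far above their library values. For 13 genes every isoform had the status FAIL. Among the 10, the authors' deposited table gives a Cldn19 isoform 2.28 FPKM in sham and 3.31 in crush (log2 fold change 0.53, q = 0.00493). It gives a Mag isoform 1.88 and 2.94 FPKM (q = 0.00636) and the main Vim isoform 258 and 311 FPKM (q = 0.0291) in the authors' deposited table. Both isoforms of Fa2h that the authors' deposited table tested had a q-value above the threshold (0.113 and 0.471), with fold changes of 0.49 and 0.47 on the log2 scale.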

How the data were processed

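Expression was deposited by the authors as FPKM per isoform and library, with bounds and a status for each value, and as FPKM of pooled groups. The submitters' processing notes name Cufflinks 1.1.0, Cuffdiff 1.2.1 and TopHat 1.3.2, and genome build mm9; parameters are not given in the sources used here. The authors' deposited comparison lists, for each isoform, its log2 fold change, p-value and q-value, and the authors' exon file gives transcript coordinates, used for positions, lengths, starts and overlaps (starts within 500 bases were grouped). Scaling to FPKM leaves the depth unknown, so no counting interval was computed. FPKM was summed per gene name, and 3 sham and 3 crush libraries, grouped by their labels, were compared with limma 3.58.1 in R 4.3.3 (log2(FPKM + 1), mean of at least 1 FPKM over the 6 libraries, eBayes with trend, 2-sided, Benjamini-Hochberg over all genes, threshold 0.05), isoforms with the same model and diffSplice. Fits were tested on simulated data. Figures were drawn with matplotlib 3.10.9, and tables were made with numpy 2.4.6 and pandas 2.3.3 under Python 3.11.15.

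The members and all lists were chosen with earlier results of these data known, so lists are given by counts and medians with no test. All members are described, with values per library for called members, the 2 most abundant of each group, Sox10, Egr2 and Gfap. Members with groups that did not overlap, or at an unadjusted p under 0.05, were given in the same detail after their values were seen. Cdh19 and Pllp are exceptions, given by range only. The promoters and the isoforms quoted were also chosen after values were seen. From other lists the called gene is named, or that of smallest adjusted p. Alternatives were another pseudocount, other filters, 2 scalings, reference isoforms only, isoforms of status OK only, library weights, a replicate block, no trend and leaving out each library.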

Additional observations from a re-analysis of the deposited data

How the results depend on the processing

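Of the changes of single members under the 16 alternatives, 372 kept direction and side of the threshold, 10 passed it newly, 9 were lost and 25 turned sign. The count of genes called, 464, was 295 with a minimum mean of 5 FPKM, 67 with reference isoforms only and 1429 with library weights (734 higher and 695 lower, beside 293 and 171), and 53 to 1174 with each library left out. Library weights, whose estimate stopped before its tolerance, gave sham 2 the lowest (0.162). The 1 member called higher became 0 with no filter and with reference isoforms only. With a minimum of 5 FPKM it was also 0, but fewer genes were tested there and Fa2h, at a mean of 3.16 FPKM, was not among them. The count was 2 with upper-quartile scaling (Fa2h and Glul) and 5 with library weights (Cldn19, Fa2h, Glul, Prx and Ugt8a). It ran from 0 to 3 with each library left out. With quantile normalization the 1 called was Glul in place of Fa2h. The 0 called lower became 1 (S100b) with quantile normalization and with library weights, and stayed 0 with each library left out. The median of the myelin members, 0.20, was 0.27 with reference isoforms only and 0.18 to 0.25 with each library left out. That of the repair members, 0.04, was 0.15 with no filter, where Gfap enters, and -0.02 to 0.08 with each library left out. The satellite glia median ran from -0.02 to 0.12 and the shared lineage median from 0.02 to 0.21 with each library left out. The cause of these shifts was not tested unless stated.

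Signs turned for members near 0. Gjb1 was at -0.04 with a pseudocount of 0.1 and with quantile normalization, and -0.11 to 0.22 with each library left out. Cnp was at 0.03 with upper-quartile scaling, 0.04 with quantile normalization and with reference isoforms only and 0.09 with library weights, and -0.08 to 0.05 with each library left out. Dhh was at 0.01 with upper-quartile scaling, and -0.10 to 0.01 with each library left out. Gja1 was at -0.14 with reference isoforms only and -0.01 with library weights, and -0.10 to 0.16 with each library left out. With each library left out Erbb3 ran over -0.03 to 0.12, Apoe over -0.34 to 0.02, Kcnj10 over -0.07 to 0.19 and Slc1a3 over -0.05 to 0.20.

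Whether the libraries of a number pair is not known from their labels. Over all genes, the deviations of sham and crush libraries of the same number correlated at 0.372, -0.309 and -0.486, and not every library correlated best with its own number. With 3 libraries per group these values cannot exclude a pairing. With the replicate block 50 genes were called (45 higher), and 0 members (Fa2h adjusted p = 0.184).

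The 3 libraries per group and the unknown depth limit all of this. At 1 to 3 FPKM, where Egr2, Gjb1, Mag and Pllp lie, the pseudocount of 1 shrinks a change, and a change of Gfap under 1 FPKM cannot be sized. The intervals of the 27 members had a median half-width of 0.24, so smaller changes were mostly not detectable. These intervals are not adjusted for the number of genes, so larger changes could also go uncalled. Examples are S100b (-0.47, limma adjusted p = 0.183) and Ugt8a (0.37, limma adjusted p = 0.0702). Reference isoforms alone cover 19 of the 27 members. Isoform results were rerun with a pseudocount of 0.1, with a minimum of 5 FPKM and with each library left out, with 0 member calls each time.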

Other observations

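The cytokine gene Clcf1, from the list of other repair genes, was at 0.835, 1.42 and 0.840 FPKM in sham and 1.76, 1.72 and 1.73 in crush, with no overlap, and did not pass limma's test (change 0.44, adjusted p = 0.112). Fgf5, a growth factor of the same list that lay under the filter, was lower in every crush library, at 0.796, 0.683 and 0.823 FPKM in sham and 0.455, 0.394 and 0.446 in crush. These 2 genes were chosen after their values were seen.

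The authors' deposited pooled estimates do not always lie near the values of the libraries. For a Vim isoform of 854 bases the authors' deposited table gives 13.2 FPKM in sham and 33.2 in crush, while its libraries are listed at 0 in all 3 sham and at 0.0299 to 0.0984 FPKM in crush. Among isoforms whose pooled estimate had the status OK and was at least 1 FPKM, the authors' deposited estimate was over 2 times the highest library for 1406 of 24341 in sham (5.78%) and for 568 of 10543 in crush (5.39%). Among the members this held for 1 of 46 isoforms in sham and 2 of 21 in crush, all of Vim.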
